A study of Drosophila melanogaster with 9 samples.

Results

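The mitochondrial ribosomal protein genes are the nuclear genes for the proteins of the ribosome inside mitochondria. They were taken as every gene whose symbol starts with mRpL (large subunit) or mRpS (small subunit) and that had a probe set paired with it alone. Of 10563 genes with such a probe set, 56 met this rule, 34 of the large and 22 of the small subunit. Where a gene had several probe sets, which was the case for mRpS11 only, the probe set that was brightest on average across all 9 arrays was used. Of 73 mRpL and mRpS symbols in the RefSeq gene table, the other 17 were not analysed here. Among these are mRpS10 and mRpL53, whose probe sets are paired with a second gene.

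The mitochondrial ribosome translates the few proteins encoded by mitochondrial DNA, nearly all of them subunits of the respiratory chain and the ATP synthase. Its RNAs come from mitochondrial DNA, while its proteins are made in the cytosol and imported. Some of the proteins belong to families shared with bacterial ribosomes, and others are found only in mitochondrial ribosomes. Muscle relies on mitochondria for ATP, and in the fly embryo the body wall muscles form by fusion of founder cells with fusion-competent myoblasts.

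Fluorescent cells were sorted out of Drosophila melanogaster embryos at stage 13, collected over 2 h and aged for 8 h at 25 °C, and gave 3 groups of 3 arrays. In ap_GFP, an apterous muscle enhancer drove GFP, and apterous is active in some of the body wall muscles. In slou_RFP, a slouch (S59) muscle enhancer drove RFP, and slouch too is active in some of these muscles. The twi_actin_GFP cells, to which both were compared, carried an actin-GFP fusion under the promoter of the mesodermal gene twist. All 3 kinds of embryo thus carried a fluorescent transgene. Strain backgrounds are not stated in the labels. The submitters give a purity of 74% for ap_GFP, 87% for slou_RFP and 95% for twi_actin_GFP, so that purity and group cannot be told apart. Each array came from its own sort. Labels give the tissue of all groups as somatic mesoderm. The transcripts of the marker genes themselves did not separate the muscle reporters. The signal of ap was 8.70, 8.45 and 9.76 on ap_GFP, 8.51, 9.16 and 8.53 on slou_RFP, and 7.18, 7.04 and 7.01 on twi_actin_GFP. That of slou was 10.77, 10.44 and 10.40 on ap_GFP, 10.73, 9.97 and 10.77 on slou_RFP, and 7.39, 8.20 and 8.33 on twi_actin_GFP. Both were well above twi_actin_GFP in both muscle reporters, and between these the differences were 0.24 ± 0.32 for ap and 0.05 ± 0.29 for slou (limma, adjusted p = 0.994 and 0.996). The twi transcript was at 9.37, 8.95 and 9.85 on ap_GFP, 9.29, 9.63 and 9.29 on slou_RFP, and 7.19, 6.99 and 7.03 on twi_actin_GFP. It was thus lowest in the group whose reporter uses the twist promoter. The muscle reporters were higher by 2.32 ± 0.21 and 2.33 ± 0.21 (limma, adjusted p = 9.27e-05 and 9.04e-05).

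Values are RMA signals on the log2 scale, and a difference of 1 is a 2-fold change. Array medians lay between 4.47 and 4.61 over 16377 probe sets. By limma at an adjusted p below 0.05, 10.9% of all genes rose and 16.3% fell on ap_GFP against twi_actin_GFP. On slou_RFP 11.3% rose and 17.3% fell. At the same threshold, of 16 measured markers of somatic mesoderm and myoblasts, 14 rose and 0 fell on ap_GFP, and 14 rose and 0 fell on slou_RFP. The log2 of their summed linear signal was 15.05 to 15.27 on ap_GFP, 14.71 to 15.24 on slou_RFP and 13.12 to 13.37 on twi_actin_GFP. Most lists of other tissues were lower, while 2 of 4 neuron markers rose in both comparisons, and of 2 germ cell markers 2 rose on ap_GFP and 1 on slou_RFP. The 5 gut markers all fell in both comparisons, with summed signals of 9.56 to 10.09 on ap_GFP, 9.71 to 10.14 on slou_RFP and 12.80 to 12.97 on twi_actin_GFP. Of 9 hemocyte markers 6 fell and 1 rose in both comparisons. Their summed signals were 11.17 to 11.91, 11.13 to 11.47 and 14.55 to 15.24 in the same order of groups. The gene srp is in both the gut and the hemocyte list, so these lists are not independent. It stood at 8.87, 9.45 and 8.99 on ap_GFP, 8.96, 8.55 and 9.10 on slou_RFP, and 11.88, 11.30 and 11.47 on twi_actin_GFP. The arrays ap_GFP replicate 3 and slou_RFP replicate 2 stand apart from the other 4 muscle reporter arrays across all genes, and results were also computed without them. The deposited values come with no detection call, and none of these signals is a true 0. In such sorted mixtures, fewer cells of a type and less RNA per cell cannot be told apart.

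All 56 genes gave bright signals in all groups. Each gene's mean over the 9 arrays lay between 9.10 and 11.43, above the upper quartile of every array (at most 7.92), and no single value fell below 8.40. The highest signals were those of mRpL12 (mean 11.43), mRpS5 (10.94) and mRpL51 (10.76), and the lowest those of mRpL46 (9.10), mRpL43 (9.12) and mRpL21 (9.27). Since probe sets differ in brightness, these values do not rank the transcripts. The spread between arrays of a group was small, with a median residual SD of 0.12 over the 56 genes (0.06 to 0.39), against 0.18 over all genes.

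Setting ap_GFP against twi_actin_GFP shows how these genes differ between apterous reporter and twist reporter cells. Fitted differences were small, and most were below 0. The fitted change ran from -0.63 to 0.36 with a median of -0.22, against a median of 0.08 over all genes and 0.00 over the 6562 genes at or above the median signal. It was below 0 for 43 of 56 genes, or 76.8%, against 40.1% of all genes and 49.5% of the brighter ones. These brighter genes reach down to a mean signal of 4.55, so they are not matched in signal to the 56 genes, whose lowest mean was 9.10. At an adjusted p below 0.05 (limma, Benjamini-Hochberg over all probe sets), 12 of the 56 fell and 2 rose, with 16.3% of all genes called lower and 10.9% called higher. The called decreases thus made up 21.4% of these genes, close to the 22.7% among the brighter genes, and the share of calls does not set the group apart. No gene of the group reached the submitters' fold of 1.7, which 12.8% of all genes passed downward and 5.61% upward together with an unadjusted p below 0.05. On 29 of the genes, or 51.8%, all 3 ap_GFP values lay below all 3 twi_actin_GFP values, against 23.2% of all genes and 31.8% of the brighter ones.

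**Figure D1:**
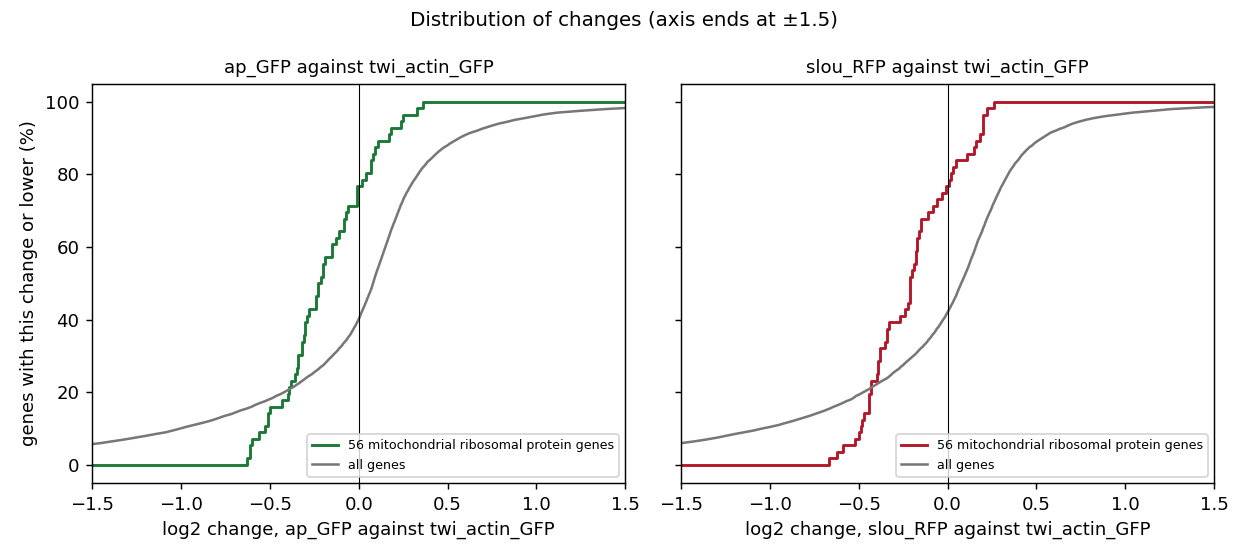
Cumulative share of genes (percent, vertical axis) against the log2 change (horizontal axis, cut at ±1.5) in ap_GFP (left) and slou_RFP (right) against twi_actin_GFP. The coloured step curve is the 56 mitochondrial ribosomal protein genes, which span -0.63 to 0.36 on the left and -0.67 to 0.26 on the right, and the grey curve is all 10563 genes, which reach far beyond on both sides.

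In the comparison of slou_RFP with twi_actin_GFP, which uses the same 3 twi_actin_GFP arrays, the change ran from -0.67 to 0.26 with a median of -0.21, against 0.08 over all genes and -0.06 over the brighter ones. At an unadjusted p below 0.05, 25 of the 56 differed here (42.3% of all genes) and 24 in the ap_GFP comparison (40.3% of all genes). Again 43 of 56 were below 0 (42.0% of all genes, 54.8% of the brighter ones). Here 14 of the 56 fell and 0 rose, with 17.3% of all genes called lower and 11.3% called higher. The called decreases were 25.0% of these genes, against 24.4% of the brighter genes. No gene reached the 1.7-fold change that 13.2% of all genes passed downward and 4.68% upward together with an unadjusted p below 0.05. On 27 genes, or 48.2%, all slou_RFP values lay below all twi_actin_GFP values, against 23.5% of all genes and 33.0% of the brighter ones. In all, 17 genes fell in at least 1 comparison and 9 in both, while 37 were called in neither. Both comparisons share the twi_actin_GFP arrays, and the joint share over all genes is not given here. These joint counts thus do not set the group apart.

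Among the large subunit genes, 6 of 34 (17.6%) fell and 0 rose on ap_GFP, against 16.3% and 10.9% of all genes, and 10 (29.4%) fell and 0 rose on slou_RFP, against 17.3% and 11.3%. The gene mRpL54, for a protein found only in mitochondrial ribosomes, stood at 9.35, 9.36 and 9.40 on ap_GFP, 9.30, 9.18 and 9.41 on slou_RFP, and 9.84, 10.17 and 9.90 on twi_actin_GFP. All 6 muscle reporter values lay below the 3 others. In ap_GFP it fell by 0.60 ± 0.11 (adjusted p = 0.00418), and in slou_RFP by 0.67 ± 0.11 (adjusted p = 0.00228), where ± is the standard error of the fit.

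The gene mRpL49, also for a mitochondria-specific protein, had signals of 9.98, 10.17 and 10.13 on ap_GFP, 10.13, 10.30 and 10.12 on slou_RFP, and 10.54, 10.86 and 10.71 on twi_actin_GFP. The groups did not overlap, and the decreases were 1.53-fold (adjusted p = 0.00409) and 1.44-fold (adjusted p = 0.00922). For mRpL35, of the bacterial L35 family, the values were 9.14, 9.47 and 9.07 on ap_GFP, 9.29, 9.50 and 9.34 on slou_RFP, and 9.80, 9.97 and 9.81 on twi_actin_GFP. On ap_GFP it fell by 0.63 ± 0.12 (adjusted p = 0.00601), the largest decrease of the 56 genes there, and on slou_RFP by 0.48 ± 0.12 (adjusted p = 0.022).

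The mitochondria-specific mRpL43 averaged 8.91 ± 0.20 on ap_GFP, 8.97 ± 0.06 on slou_RFP and 9.47 ± 0.19 on twi_actin_GFP (SD, n = 3 each) and fell in both comparisons (limma, adjusted p = 0.0166 and 0.0256). So did mRpL47, whose mammalian counterpart is placed in the bacterial L29 family of the tunnel exit, with decreases of 1.28-fold (adjusted p = 0.0373) and 1.30-fold (adjusted p = 0.0275). On ap_GFP mRpL33 was the other large subunit gene called, at -0.40 (adjusted p = 0.0425). On slou_RFP it was at -0.34 (adjusted p = 0.0723). The remaining calls on slou_RFP were mRpL15 (-0.43), mRpL32 (-0.39), mRpL46 (-0.39), mRpL16 (-0.35) and mRpL19 (-0.33), with adjusted p between 0.0274 and 0.0473. Their values on ap_GFP were -0.34, -0.36, -0.30, -0.24 and -0.29 in the same order, with adjusted p between 0.0599 and 0.146. A call in 1 comparison only is not a difference between the muscle reporters.

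**Figure D2:**
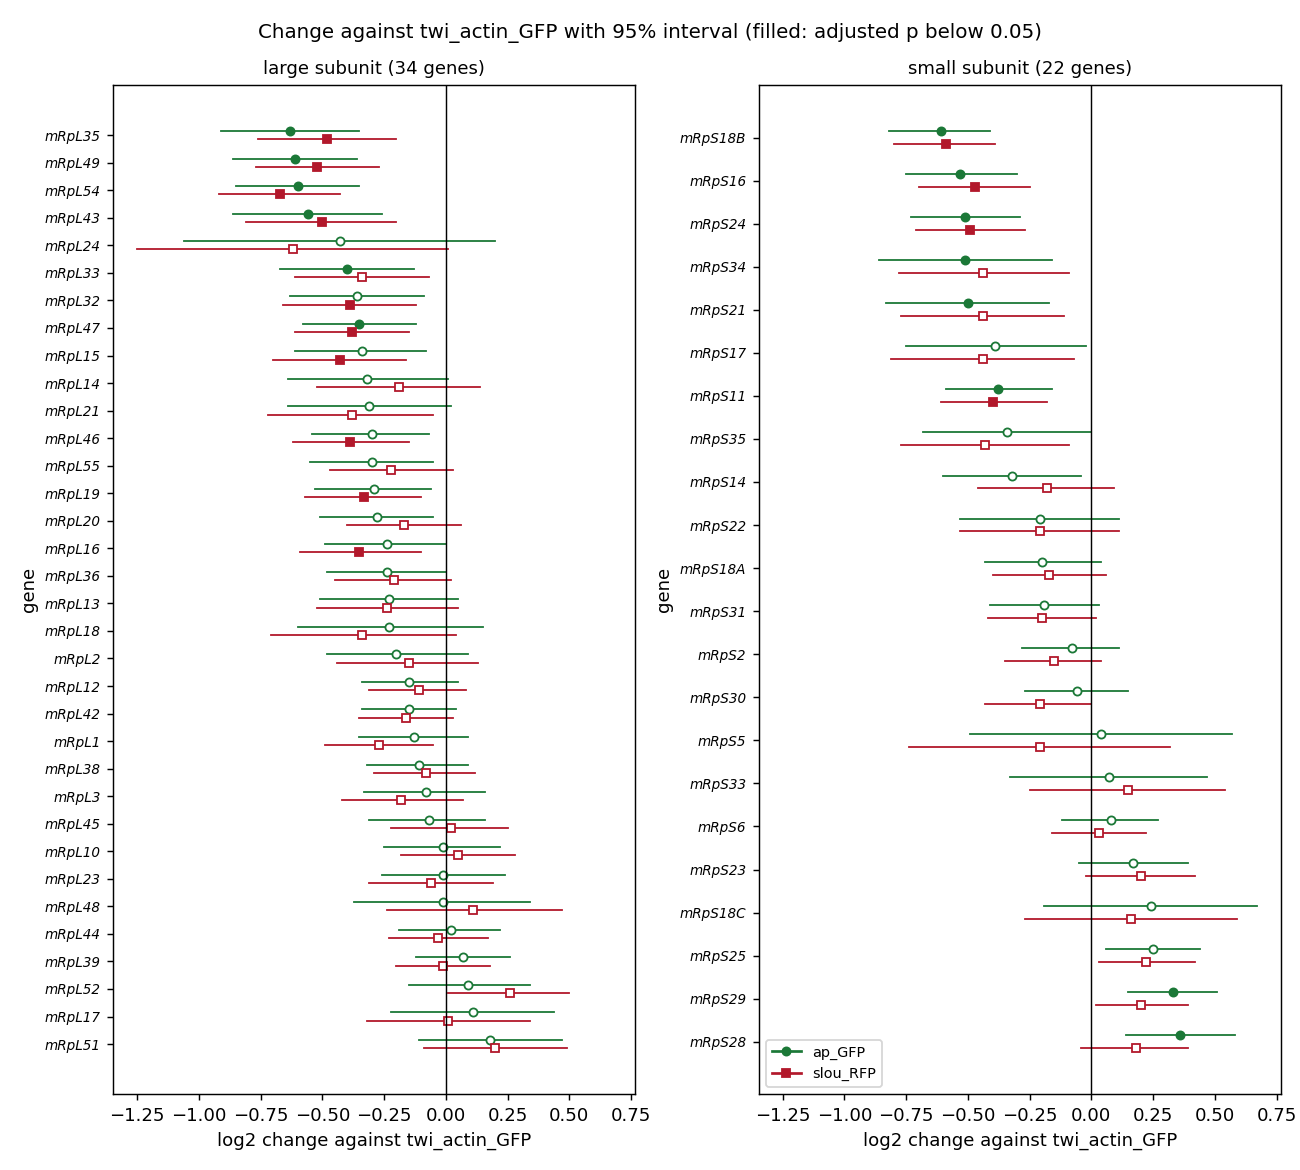
Log2 change against twi_actin_GFP (horizontal axis) of each large subunit gene (left) and small subunit gene (right), for ap_GFP (green circles) and slou_RFP (red squares), with 95% intervals from the fit. Filled symbols have an adjusted p below 0.05, most symbols lie left of 0, and the widest intervals are those of mRpL24 and mRpS5.

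Other large subunit genes with central roles did not pass the test. The genes mRpL10 and mRpL12 encode the stalk that recruits translation factors. Their changes were -0.01 (95% interval -0.25 to 0.22) and -0.15 (-0.34 to 0.05) on ap_GFP, and 0.05 (-0.18 to 0.28) and -0.11 (-0.31 to 0.08) on slou_RFP. For mRpL2 and mRpL3, whose bacterial counterparts lie near the peptidyl transferase centre, the changes on ap_GFP were -0.20 (-0.48 to 0.09) and -0.08 (-0.33 to 0.16). On slou_RFP they were -0.15 (-0.44 to 0.13) and -0.18 (-0.42 to 0.07). The mitochondria-specific mRpL44, whose protein has a fold like that of RNase III in mammals, was at 0.02 (-0.19 to 0.22) and -0.03 (-0.23 to 0.17). For mRpL45, whose mammalian counterpart lies at the inner membrane, the changes were -0.07 (-0.31 to 0.16) and 0.02 (-0.22 to 0.25). All these intervals lay within a 1.5-fold change in either direction.

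Among the small subunit genes, 6 of 22 (27.3%) fell and 2 (9.09%) rose on ap_GFP, against 16.3% and 10.9% of all genes, and 4 (18.2%) fell and 0 rose on slou_RFP, against 17.3% and 11.3%. The strongest call of the group was mRpS18B, with 9.38, 9.59 and 9.54 on ap_GFP, 9.48, 9.52 and 9.56 on slou_RFP, and 10.03, 10.21 and 10.11 on twi_actin_GFP. The lowest twi_actin_GFP value lay above all 6 muscle reporter values. The decrease was 1.53-fold in ap_GFP (limma, adjusted p = 0.00137) and 1.51-fold in slou_RFP (adjusted p = 0.00166). Its probe set is of the kind marked _s_at by the manufacturer, which can match more than 1 transcript.

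The group holds 3 genes of the S18 family, of which mRpS18B alone was called. Its paralog mRpS18A was at -0.20 (95% interval -0.43 to 0.04) on ap_GFP and -0.17 (-0.40 to 0.06) on slou_RFP. The third, mRpS18C, was at 0.24 (-0.19 to 0.67) and 0.16 (-0.27 to 0.59). Its values were 10.15, 10.38 and 9.82 on ap_GFP, 10.21, 9.64 and 10.25 on slou_RFP, and 9.81, 9.93 and 9.89 on twi_actin_GFP, so that ap_GFP replicate 3 and slou_RFP replicate 2 fell within or below the twi_actin_GFP range. The intervals of mRpS18B and mRpS18C do not overlap in either comparison, and the difference between the paralogs was not tested.

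For mRpS16, of the bacterial S16 family, the signals were 9.95, 10.24 and 10.04 on ap_GFP, 10.07, 10.17 and 10.15 on slou_RFP, and 10.54, 10.69 and 10.59 on twi_actin_GFP. The decreases were 1.44-fold (adjusted p = 0.00464) and 1.39-fold (adjusted p = 0.00809). For mRpS24, the mitochondrial counterpart of bacterial S3 at the mRNA entry in mammals, they were 9.18, 9.32 and 9.15, then 9.27, 9.12 and 9.30, and 9.61, 9.83 and 9.73 in the same order of groups. The decreases were 1.42-fold in ap_GFP (adjusted p = 0.00555) and 1.41-fold in slou_RFP (adjusted p = 0.00658).

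Both probe sets of mRpS11, a platform protein of the small subunit, gave the same result. For the brighter, the change was -0.38 in ap_GFP (adjusted p = 0.0214) and -0.40 in slou_RFP (adjusted p = 0.0165). For the dimmer it was -0.40 (adjusted p = 0.0145) and -0.42 (adjusted p = 0.0112). On ap_GFP mRpS34 (-0.51, adjusted p = 0.044) and mRpS21 (-0.50, adjusted p = 0.038) also fell. Their changes on slou_RFP were both -0.44 (adjusted p = 0.0698 and 0.0581).

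Both called increases were on ap_GFP. The gene mRpS28, whose mammalian counterpart is placed in the bacterial S1 family, stood at 10.61, 10.63 and 10.63 on ap_GFP, 10.54, 10.26 and 10.52 on slou_RFP, and 10.21, 10.32 and 10.28 on twi_actin_GFP. It rose by 0.36 ± 0.10 on ap_GFP (adjusted p = 0.0288), while the change on slou_RFP was 0.18 ± 0.10 (adjusted p = 0.203). The gene mRpS29, for the counterpart of the GTP-binding protein DAP3 of mammals, stood at 9.98, 10.08 and 10.17 on ap_GFP, 9.91, 9.98 and 9.96 on slou_RFP, and 9.74, 9.74 and 9.76 on twi_actin_GFP. It rose by 0.33 ± 0.08 on ap_GFP (adjusted p = 0.0184), and on slou_RFP its change was 0.20 ± 0.08 (adjusted p = 0.0979), with no overlap of either muscle reporter with twi_actin_GFP. Neither mRpS30 nor mRpS5 was called. The change of mRpS30 was -0.06 (-0.27 to 0.15) on ap_GFP and -0.21 (adjusted p = 0.124) on slou_RFP, and that of mRpS5 0.04 (-0.49 to 0.57) and -0.21 (-0.74 to 0.32).

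**Figure D3:**
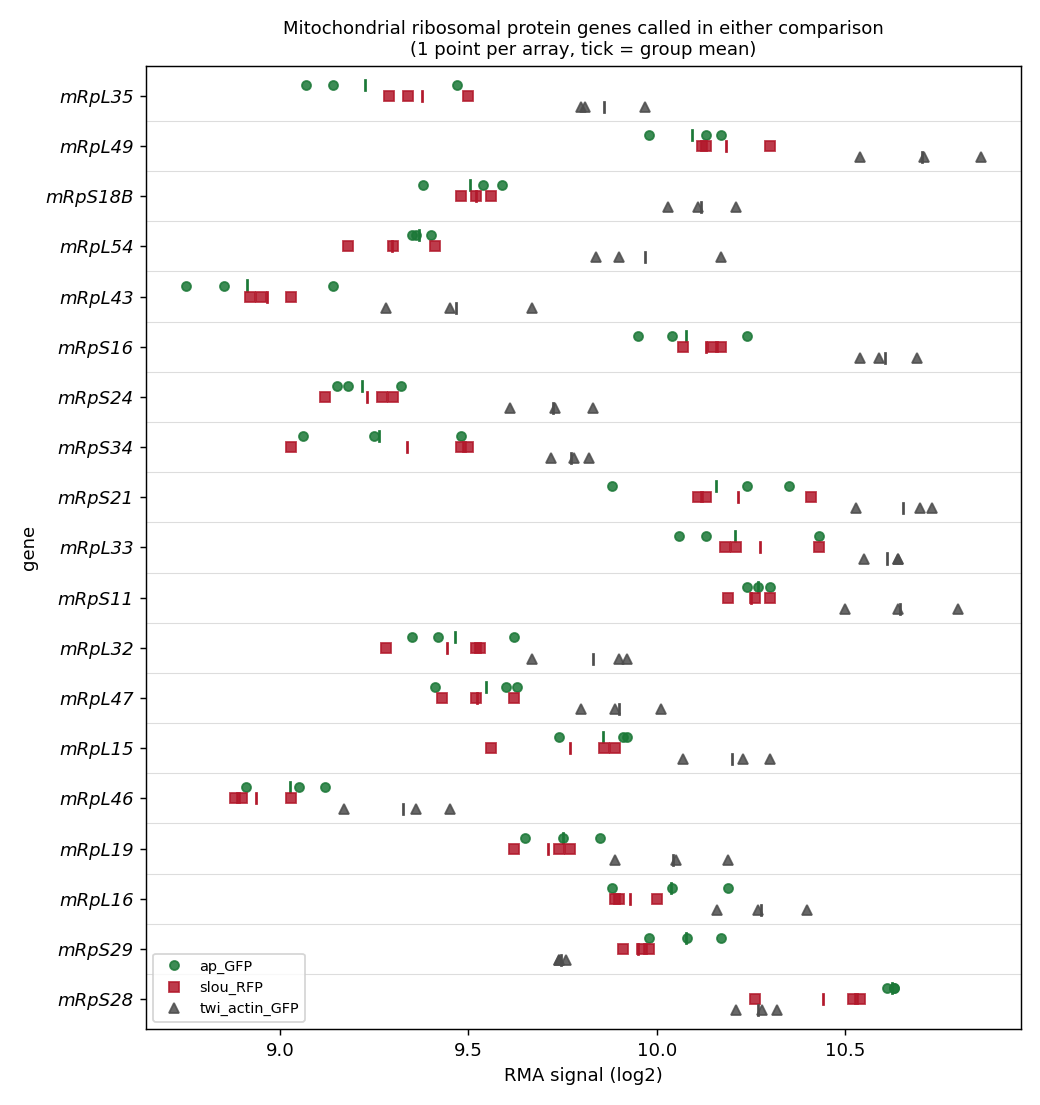
RMA signal (log2, horizontal axis) of the 19 genes called in at least 1 comparison, with 1 point per array for ap_GFP (green circles), slou_RFP (red squares) and twi_actin_GFP (grey triangles) and a tick at each group mean. For 16 of the 17 genes that fell, the twi_actin_GFP points all lie to the right, for mRpL16 the highest ap_GFP point (10.19) passes the lowest twi_actin_GFP point (10.16), and for mRpS28 and mRpS29, at the bottom, they lie to the left of ap_GFP.

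By origin of the protein, taken from the number in the symbol with mRpL47, mRpL55, mRpS24 and mRpS28 added, 35 genes were put in families shared with bacteria and 21 among the mitochondria-specific ones. Of the shared families 8 of 35 fell and 1 rose on ap_GFP, with a median change of -0.28, and 10 fell and 0 rose on slou_RFP, with a median of -0.24. Of the mitochondria-specific genes 4 of 21 fell and 1 rose on ap_GFP (median -0.07), and 4 fell and 0 rose on slou_RFP (median -0.08). The decreases were 22.9% and 28.6% of the shared family genes, and 19.0% of the mitochondria-specific genes in each comparison. Of all genes 16.3% and 17.3% fell, and of the brighter genes 22.7% and 24.4%. Increases were called for 10.9% and 11.3% of all genes. By subunit, the medians were -0.24 and -0.22 for the large and -0.19 and -0.20 for the small subunit. Mammalian counterparts of mRpS18A and mRpS18B carry mitochondria-specific names, and those of mRpS18A and mRpS30 lie in the large subunit. With these genes moved, 7 of 33 shared family genes (21.2%) fell on ap_GFP and 9 (27.3%) on slou_RFP, with medians of -0.28 and -0.24. Of the mitochondria-specific genes 5 of 23 (21.7%) then fell on each (medians -0.11 and -0.16), a smaller gap between the classes. The large subunit then had 6 of 36 genes (16.7%) lower on ap_GFP and 10 (27.8%) on slou_RFP. None of these differences between classes was tested. The gene tko, which encodes the S12 protein of the decoding centre under another symbol, also fell in both comparisons. It stood at 10.22, 10.36 and 10.04 on ap_GFP, 10.28, 10.11 and 10.30 on slou_RFP, and 10.64, 10.84 and 10.67 on twi_actin_GFP, a change of -0.51 ± 0.11 (limma, adjusted p = 0.0111) and -0.49 ± 0.11 (adjusted p = 0.0135).

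In twi_actin_GFP, and less so in ap_GFP, these genes moved together from array to array within the group as well. In the twi_actin_GFP group, replicate 2 was the highest array for 52 of the 56 genes and replicate 1 the lowest for 52, against 33.7% and 44.3% of all genes. The median difference between replicate 2 and replicate 1 was 0.22 over the 56 genes and 0.06 over the brighter genes, as large as the median change between groups. In ap_GFP, replicate 2 was the highest for 38 genes and the lowest for 0, against 32.8% and 28.9% of all genes. Of the brighter genes, 41.0% were highest on that array. In slou_RFP the genes split, with replicate 2 the highest for 21 and the lowest for 31, against 44.2% and 45.6% of all genes. Median deviations of the 56 genes from their means were -0.08, 0.03 and -0.11 on ap_GFP, -0.06, -0.10 and -0.03 on slou_RFP, and 0.04, 0.26 and 0.15 on twi_actin_GFP, by replicate. The lowest twi_actin_GFP median, 0.04, thus lay just above the highest of a muscle reporter array, 0.03. Summed hemocyte signals were 11.17, 11.91 and 11.21 on the ap_GFP arrays, highest where these genes were highest, and 15.24, 14.55 and 14.82 on the twi_actin_GFP arrays, lowest where these genes were highest. Summed gut signals were 9.56, 10.09 and 9.94 on ap_GFP and 12.80, 12.97 and 12.92 on twi_actin_GFP, highest in both where these genes were highest. On slou_RFP they were 9.71, 10.14 and 9.87, highest on replicate 2, where the median of these genes was lowest. Other tissue lists are not set beside the shift here. The part of any tissue in the shift was not tested.

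**Figure D4:**
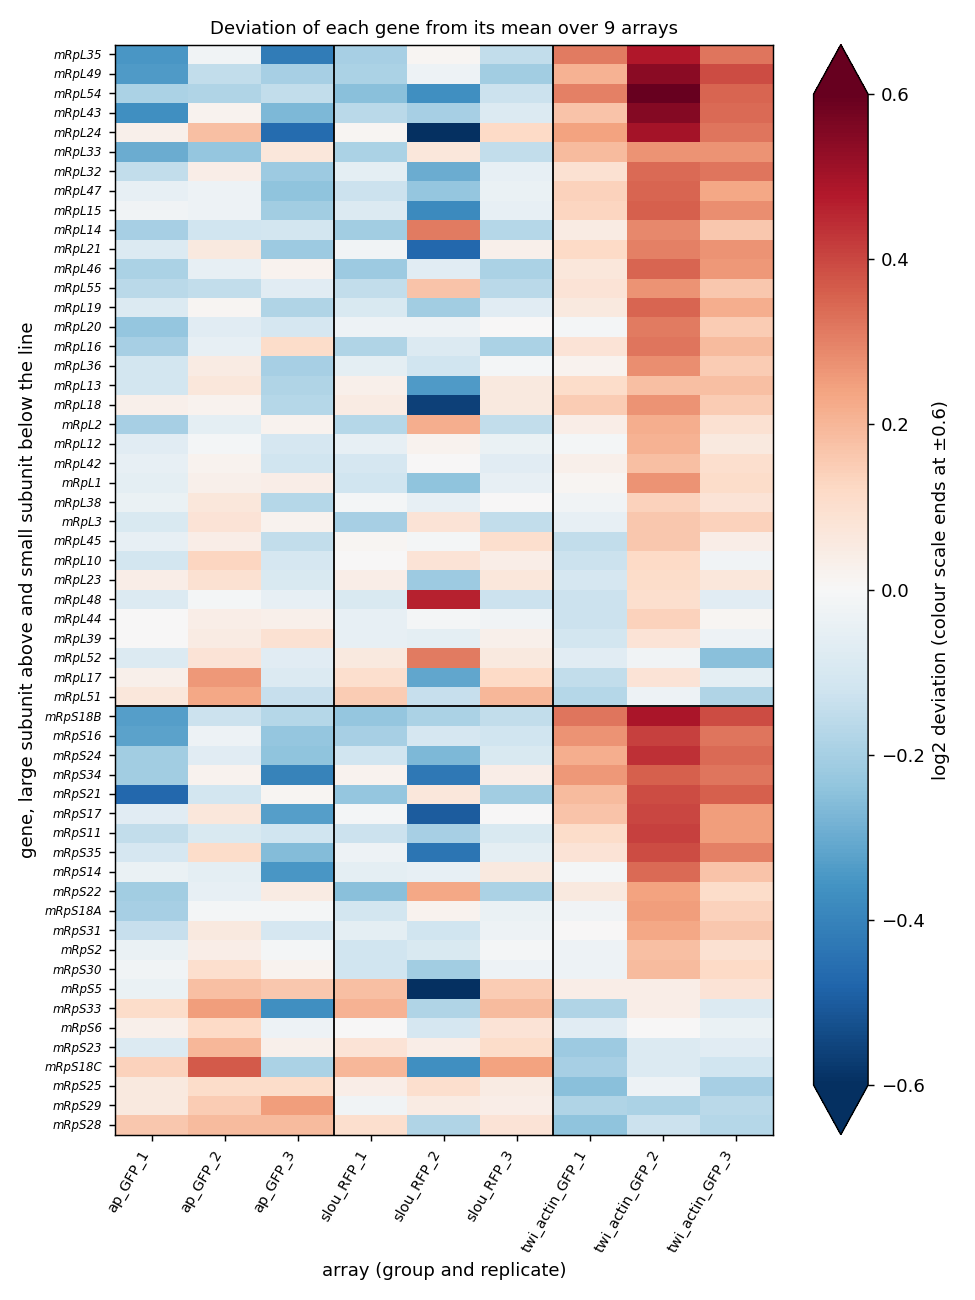
Deviation of each gene (rows, large subunit above the line and small subunit below) from its own mean over the 9 arrays (columns, ap_GFP, slou_RFP and twi_actin_GFP, replicates 1 to 3), in log2 units on a colour scale that ends at ±0.6. Most rows are red on twi_actin_GFP replicate 2, which was the highest of its group for 52 of 56 genes, and slou_RFP replicate 2 holds the strongest single deviations.

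The number of calls rested on single arrays, for these genes as for all genes. On ap_GFP, 14 genes were called with all arrays, and the total was 7 without ap_GFP replicate 1, 8 without replicate 2, 8 without replicate 3, 7 without twi_actin_GFP replicate 2, 6 without twi_actin_GFP replicate 3 and 23 without slou_RFP replicate 2, which enters through the pooled spread. Of all genes, 27.1% were called with all arrays, 19.5% without twi_actin_GFP replicate 3 and 39.2% without slou_RFP replicate 2. On slou_RFP, 14 genes became 6 without slou_RFP replicate 1, 9 without replicate 3, 5 without twi_actin_GFP replicate 2 and 5 without twi_actin_GFP replicate 3, against 28.6% of all genes with all arrays and 19.1% without twi_actin_GFP replicate 3. Without both ap_GFP replicate 3 and slou_RFP replicate 2, 17 genes fell and 4 rose on ap_GFP, and 19 fell and 3 rose on slou_RFP. In the same fit 21.8% of all genes fell and 21.6% rose on ap_GFP, and 22.4% fell and 22.2% rose on slou_RFP. The genes mRpL49, mRpL54, mRpS16, mRpS18B and mRpS24 kept their call in both comparisons in all 16 other fits, and mRpL35 in that of ap_GFP. The increase of mRpS28 lost its call in 7 of these fits and that of mRpS29 in 5.

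The direct comparison of ap_GFP with slou_RFP called no gene of the group. Since ap and slou transcripts do not separate these arrays either, it is not known from these data how distinct the muscle cells behind the labels were. By limma 0 of the 56 genes passed, as did 0.0% of all genes, and 0 of the 56 had an unadjusted p below 0.05, against 2.56% of all genes. The median difference was 0.01, and 25 of the 56 were below 0 (45.3% of all genes). No gene reached 1.7-fold, which 0.0473% of all genes passed upward and 0.0189% downward together with an unadjusted p below 0.05. For 54 of the 56 genes the 95% interval lay within a 1.5-fold difference in either direction. Exceptions were mRpS5, at 0.25 (-0.28 to 0.78), and mRpL24, at 0.19 (-0.45 to 0.82), both with a single low array on slou_RFP. The next largest differences were 0.18 for mRpS28 (-0.04 to 0.40) and -0.16 for mRpL52 (-0.41 to 0.08). The increases of mRpS28 and mRpS29 on ap_GFP are therefore not shown to be larger than those on slou_RFP. The 3 ap_GFP values did lie above the 3 slou_RFP values for 4 of the 56 genes, namely mRpL44, mRpS28, mRpS29 and mRpS30, against 3.45% of all genes, and below them for mRpL20 alone, against 3.11%. The gaps were narrow, at 0.01 for mRpL44, 0.06 for mRpS28, 0.00 for mRpS29, 0.01 for mRpS30 and 0.03 for mRpL20.

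The arrays ap_GFP replicate 3 and slou_RFP replicate 2 departed from the other 4 muscle reporter arrays in both directions. Of the 56 genes, 25 lay below and 14 above the range of those 4 arrays on ap_GFP replicate 3, and 27 below and 13 above on slou_RFP replicate 2, against 32.1% and 30.1%, and 39.6% and 37.7%, of all genes. On both arrays the same 20 genes were below and 7 above. The joint share over all genes is not given here, so these counts do not set the group apart. Across all probe sets these arrays also deviated together, with a correlation of 0.6677 between their deviations from group means. For mRpL24 the signal was 8.88 in the first and 8.40 in the second of these arrays, against a mean of 9.42 over the other 4. The gene mRpS5, whose bacterial counterpart acts in decoding fidelity, was at 11.10 in the first and 10.16 in the second, against 11.06. In the other direction mRpL48 was at 9.82 and mRpL14 at 10.34 on slou_RFP replicate 2, against means of 9.29 and 9.85. Over the 56 genes, the median departure was -0.06 on each array.

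Other gene lists were counted in the same fit, which called 16.3% of all genes lower on ap_GFP and 17.3% on slou_RFP. Of the brighter genes 22.7% and 24.4% were called lower, and 10.9% and 11.3% of all genes were called higher. The respiratory chain and ATP synthase list held 60 genes, chosen by symbol and including some assembly factors and paralogs. Of these, 15 (25.0%) fell and 3 (5.0%) rose on ap_GFP (median -0.18). On slou_RFP 13 (21.7%) fell and 1 (1.67%) rose (median -0.13). Their median deviations were highest on the same array, 0.16 on twi_actin_GFP replicate 2 against 0.01 on replicate 1. The cytosolic ribosomal protein list held 36 genes chosen by symbol, some of them paralogs or genes named as -like. Of these, 3 (8.33%) fell and 3 (8.33%) rose on ap_GFP (median 0.01). On slou_RFP 1 (2.78%) fell and 3 (8.33%) rose (median -0.01). Those that rose were RpL7-like, RpL24-like and RpS28a in both comparisons. Median deviations of the 36 genes stayed between -0.07 and 0.01 on all 9 arrays. Their median signals were 13.99 to 14.09, near the highest signal of any probe set, 14.64. Whether changes are compressed at that level was not tested. Differences between these lists and the mitochondrial ribosomal genes were not tested.

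**Figure D5:**
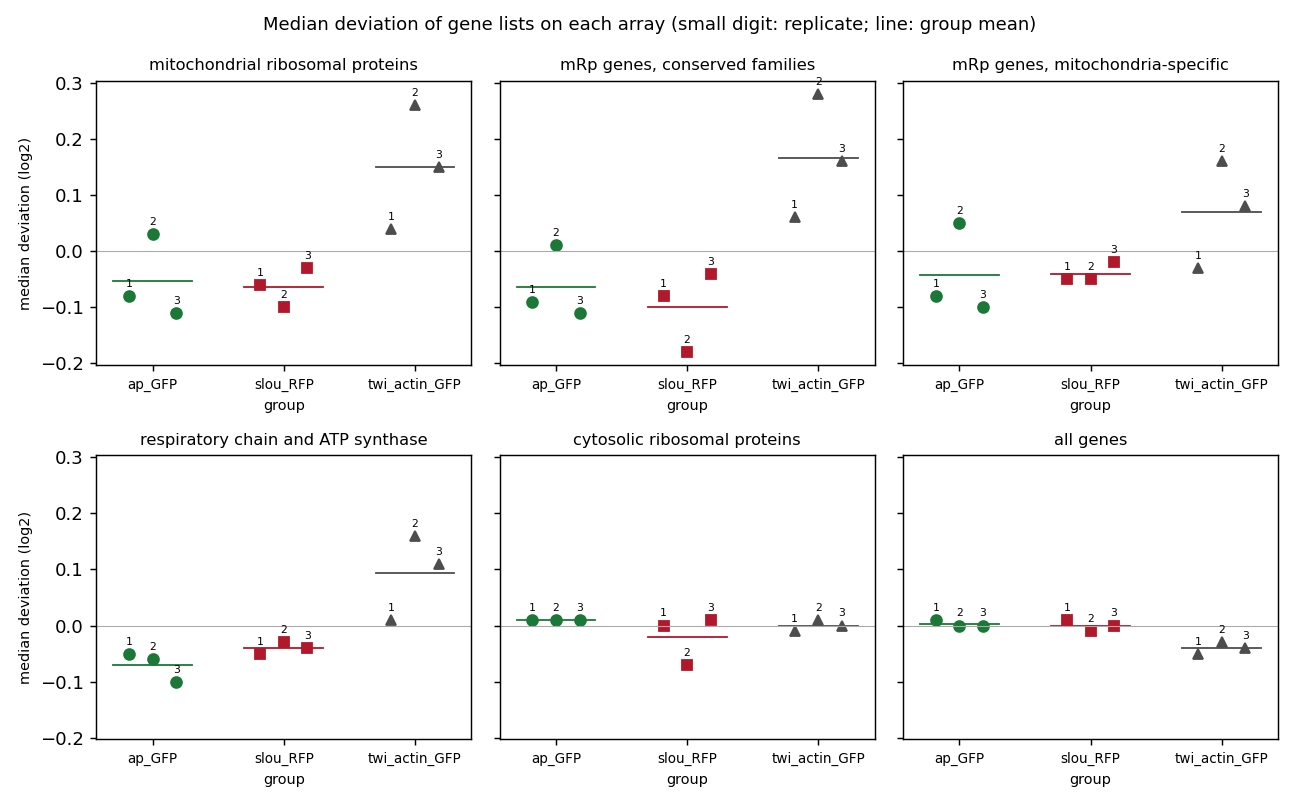
Median deviation (log2, vertical axis) of 6 gene lists on each array, by group (horizontal axis), with the replicate number beside each point and a line at the group mean. The mitochondrial ribosomal genes reach 0.26 on twi_actin_GFP replicate 2, and the cytosolic ribosomal genes stay between -0.07 and 0.01.

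The partners of the mitochondrial ribosome did not share 1 direction. Of 9 translation factors, 1 (11.1%) rose and 2 (22.2%) fell on ap_GFP, against 10.9% and 16.3% of all genes. On slou_RFP 1 (11.1%) rose and 1 (11.1%) fell, against 11.3% and 17.3%. The elongation factor gene mEFTu1, whose product brings aminoacyl-tRNA to the ribosome, stood at 11.78, 11.85 and 11.72 on ap_GFP, 11.77, 11.43 and 11.76 on slou_RFP, and 11.16, 11.19 and 11.05 on twi_actin_GFP. It rose by 0.65 ± 0.11 (limma, adjusted p = 0.00308) and 0.52 ± 0.11 (adjusted p = 0.01). The ribosome recycling factor gene mRRF1 fell by 0.58 ± 0.15 (limma, adjusted p = 0.0214) and 0.57 ± 0.15 (adjusted p = 0.0234).

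Of 15 mitochondrial tRNA synthetase genes, 5 (33.3%) fell in each comparison, against 16.3% and 17.3% of all genes, with medians of -0.30 and -0.35. In each comparison 1 of them (6.67%) rose, against 10.9% and 11.3% of all genes. The increase was that of PheRS-m, the phenylalanyl-tRNA synthetase, and exceeded in size every change of the 56 ribosomal genes. It stood at 12.16, 12.24 and 12.31 on ap_GFP, 12.14, 11.88 and 12.17 on slou_RFP, and 10.67, 10.28 and 10.11 on twi_actin_GFP, and rose by 1.88 ± 0.15 (adjusted p = 4.72e-05) and 1.71 ± 0.15 (adjusted p = 7.95e-05). The serine enzyme gene SerRS-m fell by 0.89 ± 0.21 (adjusted p = 0.0177) and 0.87 ± 0.21 (adjusted p = 0.0194).

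Of 12 genes of mitochondrial DNA and transcription, 2 (16.7%) rose and 0 fell on ap_GFP, against 10.9% and 16.3% of all genes. On slou_RFP 3 (25.0%) rose and 2 (16.7%) fell, against 11.3% and 17.3%. The mitochondrial RNA polymerase gene PolrMT, whose product transcribes the ribosomal RNAs, was at 9.36, 9.45 and 9.12 on ap_GFP, 9.51, 9.28 and 9.51 on slou_RFP, and 8.84, 8.78 and 8.81 on twi_actin_GFP. It rose by 0.50 ± 0.11 (limma, adjusted p = 0.0117) and 0.62 ± 0.11 (adjusted p = 0.00374). The protease gene Lon rose by 0.46 ± 0.09 (adjusted p = 0.00534) and 0.40 ± 0.09 (adjusted p = 0.0104). The single-stranded DNA binding protein gene mtSSB was at -0.24 on ap_GFP (adjusted p = 0.0522) and fell by 0.32 on slou_RFP (adjusted p = 0.0172).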

How the data were processed

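The authors deposited log2 signals per probe set for 9 Affymetrix Drosophila Genome 2.0 arrays, made with RMA in Partek per the submitters' processing notes. RMA corrects background, normalizes between arrays and summarises probes, and it can compress fold changes. Software versions are not given in the sources used here. Signals ran from 2.28 to 14.64 and were used as deposited. Probe sets were named through the platform annotation, and all 56 genes were found in the RefSeq gene table by gene ID. All 16377 probe sets and 9 arrays entered 1 fit with a mean per group (lmFit and eBayes of limma 3.58.1, R 4.3.3, no covariates), with Benjamini-Hochberg adjustment over all probe sets. The pipeline was tested on simulated arrays. The number of arrays limits the precision, with a median standard error of 0.11 over the 56 genes.

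The gene group and lists were chosen with earlier results of these data known. Genes named by rule were up to 12 called increases and decreases per comparison, the 3 highest and 3 lowest signals, the 4 largest differences between the muscle reporters, 12 genes picked by role, tko, and up to 4 genes per comparison list. The genes mRpL14, mRpL16, mRpL19, mRpL20 and mRpL48 were named after their values were seen. The gene bonsai was not analysed here. Alternatives were a further quantile normalization, only 2 groups, a variance trend, array weights, a filter on dim probe sets, a replicate block, every probe set, the submitters' rule and omission of arrays. The other assignment of mRpS18A, mRpS18B and mRpS30 was chosen after seeing the data.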

Additional observations from a re-analysis of the deposited data

How the results depend on the processing

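No result on a called gene changed direction in any of 16 other fits, and 11 of the 28 calls of single genes were kept in all of them (6 on ap_GFP and 5 on slou_RFP). The median change ranged from -0.26 to -0.16 on ap_GFP and from -0.26 to -0.15 on slou_RFP. Counts of called genes moved more. On ap_GFP, where 14 were called, 26 were called with array weights (43.0% of all genes, against 27.1%), 6 to 23 when 1 array was left out (19.5% to 39.2% of all genes) and 0 by the submitters' rule. On slou_RFP, where 14 were called, the count was 9 with only the 2 groups compared, 43 with array weights (60.6% of all genes, against 28.6%), 22 without ap_GFP replicate 3 and slou_RFP replicate 2 (44.6%), 5 to 18 when 1 array was left out (19.1% to 36.3%) and 0 by the submitters' rule. Between ap_GFP and slou_RFP 0 were called in every fit run. With replicate number as a block, 10 genes were called in each comparison against twi_actin_GFP. Deviations of same-numbered arrays had correlations of 0.4906, -0.5629 and -0.6177 between ap_GFP and slou_RFP. Those with twi_actin_GFP lay between -0.04194 and 0.1183. The departing arrays ap_GFP replicate 3 and slou_RFP replicate 2, at 0.6677 with each other, weigh on the former values. The correlations thus cannot decide whether the numbers pair the arrays. With 3 arrays a group, changes below about the size of those called cannot be told from the spread between sorts.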

Other observations

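Protein import and nucleolar genes, which the comparisons above do not use, had few calls. Of 18 measured import genes, 1 (5.56%) rose and 2 (11.1%) fell in each comparison against twi_actin_GFP. Of all genes 10.9% rose and 16.3% fell on ap_GFP, and 11.3% rose and 17.3% fell on slou_RFP. The receptor gene Tom70 rose 0.94 ± 0.14 in ap_GFP (limma, adjusted p = 0.00125) and 0.86 ± 0.14 in slou_RFP (adjusted p = 0.00212), and the intermembrane space chaperone gene Tim8 fell by 0.46 ± 0.10 (adjusted p = 0.0105) and 0.62 ± 0.10 (adjusted p = 0.00241). Of 13 genes of cytosolic ribosome biogenesis, 1 (7.69%) rose and 0 fell in each comparison. This was Nop60B, the pseudouridine synthase of the nucleolus, at 0.92 ± 0.14 (adjusted p = 0.00144) and 0.80 ± 0.14 (adjusted p = 0.00329). The list deviated by -0.64 on slou_RFP replicate 2 and -0.17 on ap_GFP replicate 3, while the remaining ap_GFP and slou_RFP arrays lay between 0.20 and 0.32.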
